A study of Homo sapiens with 12 samples.

Results

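The circadian clock genes described here are 10 genes of the negative limb and the output limb of the clock: PER1, PER2, PER3, CRY1, CRY2, NR1D1, NR1D2, DBP, TEF and BHLHE40. They were chosen by symbol, and all 10 were found among the 56104 gene IDs of both deposited count tables. They were measured in HCT116, a colorectal carcinoma cell line, used at passages under 15. KO cells are labelled as PPM1G knockouts (PPM1G is a serine/threonine phosphatase of the nucleus), and Ctrl cells are the controls, which the sample titles call Ctrl_KO. Each genotype had 3 libraries of newly made RNA (4sU-seq, in which RNA labelled with 500 µM 4-thiouridine during a pulse of 10 min is pulled down) and 3 of steady-state RNA (RNA-seq), 12 in all. Whether the KO line is 1 clone, which site was edited, at what hour the cultures were harvested and whether they had been synchronised is not given in the sources used here.

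The mammalian clock is a loop of transcription and repression. CLOCK or NPAS2 pairs with ARNTL (also called BMAL1) and activates genes that carry E-boxes, among them the period genes PER1, PER2 and PER3, the cryptochrome genes CRY1 and CRY2, the nuclear receptor genes NR1D1 and NR1D2 (REV-ERB alpha and beta) and the output genes DBP and TEF. PER and CRY proteins return to the nucleus and repress that pair of activators, the REV-ERB receptors repress ARNTL, DBP and TEF bind D-boxes as activators of the PAR bZIP family, and BHLHE40 (DEC1) is a repressor that binds E-boxes. Several of these genes, PER1 and BHLHE40 among them, are also induced by growth factors, hormones or stress.

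The promoters of these genes differ in which of 4 exact clock motifs they hold close to the start site. RefSeq (GRCh38.p14) lists 14 promoter windows for the 10 genes, each running from 250 bases before to 50 bases after a start site. Both strands were searched for the E-box CACGTG, the D-box TTANGTAA, the ROR and REV-ERB response element TAGGTCA and the core CRE TGACGTC, a palindrome being counted once. The E-box was found in the windows of PER1 and BHLHE40, in both windows of TEF and in the second of NR1D2. Of all 35116 windows in the table, 7.26% hold it. The D-box was found at PER2, PER3 and NR1D2 (2.18% of all windows), the response element at CRY2 (1.85%) and the core CRE at NR1D2 (3.45%). The windows of CRY1, NR1D1 and DBP held none of these letters. The looser form CANNTG occurs in 68.7% of all windows and so tells few promoters apart. Other variants of these motifs, which CANNTG does not cover, and sites outside the windows were not searched. A window without a match may therefore still hold a variant clock element. The 250 upstream bases are shown for 6 genes, with matches in capitals: PER1 and BHLHE40 for an E-box, PER3 for a D-box, NR1D2 (its second window) for 2 E-boxes, a D-box and a core CRE, and CRY1 and DBP because CRY1 fell and DBP rose in RNA-seq, neither with a match.

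PER1, chr17:8152405-8152654, minus strand: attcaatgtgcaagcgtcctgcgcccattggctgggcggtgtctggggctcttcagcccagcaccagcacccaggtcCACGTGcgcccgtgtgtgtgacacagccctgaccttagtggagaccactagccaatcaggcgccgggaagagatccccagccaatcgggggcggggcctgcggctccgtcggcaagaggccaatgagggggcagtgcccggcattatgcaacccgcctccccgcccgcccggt
PER3, chr1:7784041-7784290, plus strand: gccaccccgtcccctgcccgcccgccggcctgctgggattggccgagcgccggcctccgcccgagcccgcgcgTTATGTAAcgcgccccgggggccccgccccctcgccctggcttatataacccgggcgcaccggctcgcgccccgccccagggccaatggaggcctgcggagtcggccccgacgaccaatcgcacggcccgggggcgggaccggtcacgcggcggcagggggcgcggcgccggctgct
CRY1, chr12:107093550-107093799, minus strand: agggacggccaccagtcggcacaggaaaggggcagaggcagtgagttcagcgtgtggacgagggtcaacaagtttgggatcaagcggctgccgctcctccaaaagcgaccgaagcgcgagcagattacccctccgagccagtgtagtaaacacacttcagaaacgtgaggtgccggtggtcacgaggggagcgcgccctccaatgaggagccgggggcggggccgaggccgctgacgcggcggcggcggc
NR1D2, chr3:23945871-23946120, plus strand: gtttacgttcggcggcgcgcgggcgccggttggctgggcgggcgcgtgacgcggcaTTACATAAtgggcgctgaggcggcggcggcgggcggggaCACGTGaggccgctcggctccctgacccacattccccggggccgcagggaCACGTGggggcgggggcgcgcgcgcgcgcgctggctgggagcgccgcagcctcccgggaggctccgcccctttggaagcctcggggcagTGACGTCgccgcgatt
DBP, chr19:48637380-48637629, minus strand: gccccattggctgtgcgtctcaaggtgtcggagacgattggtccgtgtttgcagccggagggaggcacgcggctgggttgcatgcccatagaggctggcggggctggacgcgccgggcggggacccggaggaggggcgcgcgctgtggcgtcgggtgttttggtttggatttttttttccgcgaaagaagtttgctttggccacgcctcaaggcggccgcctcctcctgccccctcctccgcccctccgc
BHLHE40, chr3:4979187-4979436, plus strand: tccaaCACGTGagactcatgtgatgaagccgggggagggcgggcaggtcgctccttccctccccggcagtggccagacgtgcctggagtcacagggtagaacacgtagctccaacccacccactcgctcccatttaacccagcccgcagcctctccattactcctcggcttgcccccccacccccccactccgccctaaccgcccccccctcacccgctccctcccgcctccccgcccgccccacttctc

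In the printed stretches the E-box starts at position −173 from the start site in PER1 and at −245 in BHLHE40. In NR1D2 the D-box starts at position −194, the E-boxes at −155 and −105 and the core CRE at −16. In PER3 the D-box starts at −177. A match describes these letters and is not a measured binding site.

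The libraries held between 79403238 and 101884166 gene counts for 4sU-seq, and between 30962756 and 42479828 for RNA-seq, so that 3 counts, taken as the floor of detection, stood for 0.0294 to 0.0378 and 0.0706 to 0.0969 CPM (counts scaled to library size). PPM1G itself had 98.9, 144 and 104 CPM in KO libraries, against 242, 271 and 235 CPM in Ctrl libraries of 4sU-seq, and 97.8, 94.9 and 97.9 CPM in KO libraries, against 326, 293 and 331 CPM in Ctrl libraries of RNA-seq. On the log2 scale it fell by 1.11 ± 0.17 in 4sU-seq (adjusted p = 0.00717) and by 1.71 ± 0.06 in RNA-seq (adjusted p = 1.77e-10). Of 10 markers of colorectal epithelium, 6 reached 1 CPM in RNA-seq in both genotypes, with summed levels of 2596 to 2707 CPM in KO and 2782 to 3184 CPM in Ctrl libraries. CDX1 was at 0 in both, and CEACAM5 in KO. Of 5 fibroblast markers, 1 reached 1 CPM in RNA-seq (summed 9.75 to 11.1 CPM in KO, 4.28 to 6.27 CPM in Ctrl), and of the blood and endothelial markers none did. In 4sU-seq, 2 of 4 endothelial markers reached 1 CPM (summed 12.7 to 12.9 CPM in KO, 5.97 to 6.67 CPM in Ctrl). Their part in the results was not tested. KO replicate 2 of 4sU-seq stood apart from the other KO libraries: the chi-square per degree of freedom of its counts was 344 and 454 against KO replicates 1 and 3, and 35.5 between those. RNA-seq KO replicates 1 and 2 were closer (1.88) than any other pair of replicates of that assay (12.7 to 22.9), though still above sampling noise. Replicates may be technical, since separate cultures are stated for 4sU-seq alone, and p-values then measure the spread between these libraries.

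The steady-state levels of the period and cryptochrome genes were lower in KO cells. All 5 fell, against 26.8% of all genes tested, and CRY1 and PER3 fell most, each by 1.34 on the log2 scale. Values are CPM normalised by TMM (a scaling that assumes most genes do not change), and changes are log2 KO over Ctrl ± standard error with n = 3 libraries per group, from edgeR's quasi-likelihood test with Benjamini-Hochberg adjustment over all 20415 genes tested. In such bulk samples fewer expressing cells and less RNA per cell cannot be told apart.

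CRY1, which encodes the stronger transcriptional repressor of the cryptochromes, had 12.6, 12.7 and 14.2 CPM in KO libraries, against 32.4, 34.3 and 33.3 CPM in Ctrl libraries. Every KO library lay below every Ctrl library, and the change was −1.34 ± 0.06 (adjusted p = 2.80e-09). CRY2, the other cryptochrome gene, had 19.1, 18.8 and 17.8 CPM in KO libraries, against 30.1, 26.7 and 29.1 CPM in Ctrl libraries. Its groups did not overlap either, with a smaller change of −0.63 ± 0.06 (adjusted p = 3.37e-06).

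PER3, the period gene that is least needed for rhythms in mouse, had 5.21, 4.72 and 5.00 CPM in KO libraries, against 12.7, 13.2 and 11.9 CPM in Ctrl libraries (−1.34 ± 0.08, adjusted p = 3.71e-08). PER2, a core repressor, had 34.5, 33.0 and 31.4 CPM in KO libraries, against 65.5, 59.9 and 63.4 CPM in Ctrl libraries (−0.93 ± 0.06, adjusted p = 4.58e-08). The KO libraries of both genes lay well below the Ctrl libraries. PER1, the most quickly induced of the period genes, had 65.9, 67.4 and 68.7 CPM in KO libraries, against 102, 90.1 and 92.8 CPM in Ctrl libraries. Its groups were also apart, and it fell by 0.50 ± 0.06 (adjusted p = 1.94e-05).

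The 2 REV-ERB genes were not called in steady-state RNA. NR1D1 had 59.8, 62.2 and 61.3 CPM in KO libraries, against 75.3, 59.7 and 61.6 CPM in Ctrl libraries (−0.10 ± 0.08, adjusted p = 0.307). Its Ctrl replicate 1 stood above the other libraries, and without that library the change was 0.06. NR1D2 had 201, 200 and 218 CPM in KO libraries, against 168, 211 and 219 CPM in Ctrl libraries (0.05 ± 0.08, adjusted p = 0.646). Its groups overlapped, with Ctrl replicate 1 the lowest. With library size alone as the scaling, NR1D2 was called higher (0.24, adjusted p = 0.0185) and NR1D1 stood at 0.08.

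The PAR bZIP genes went opposite ways. DBP, whose transcript is among the most strongly cycling in many tissues, had 31.9, 31.0 and 32.8 CPM in KO libraries, against 24.3, 21.3 and 22.0 CPM in Ctrl libraries. All KO libraries were above the Ctrl libraries, and DBP rose by 0.50 ± 0.06 (adjusted p = 2.17e-05). TEF had 33.4, 32.9 and 33.8 CPM in KO libraries, against 48.8, 45.0 and 47.5 CPM in Ctrl libraries. It fell by 0.50 ± 0.05 (adjusted p = 6.45e-06). BHLHE40, the E-box repressor, had 48.9, 47.3 and 49.9 CPM in KO libraries, against 34.5, 29.5 and 31.1 CPM in Ctrl libraries. It rose by 0.62 ± 0.06 (adjusted p = 4.16e-06), again with no overlap.

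**Figure D1:**
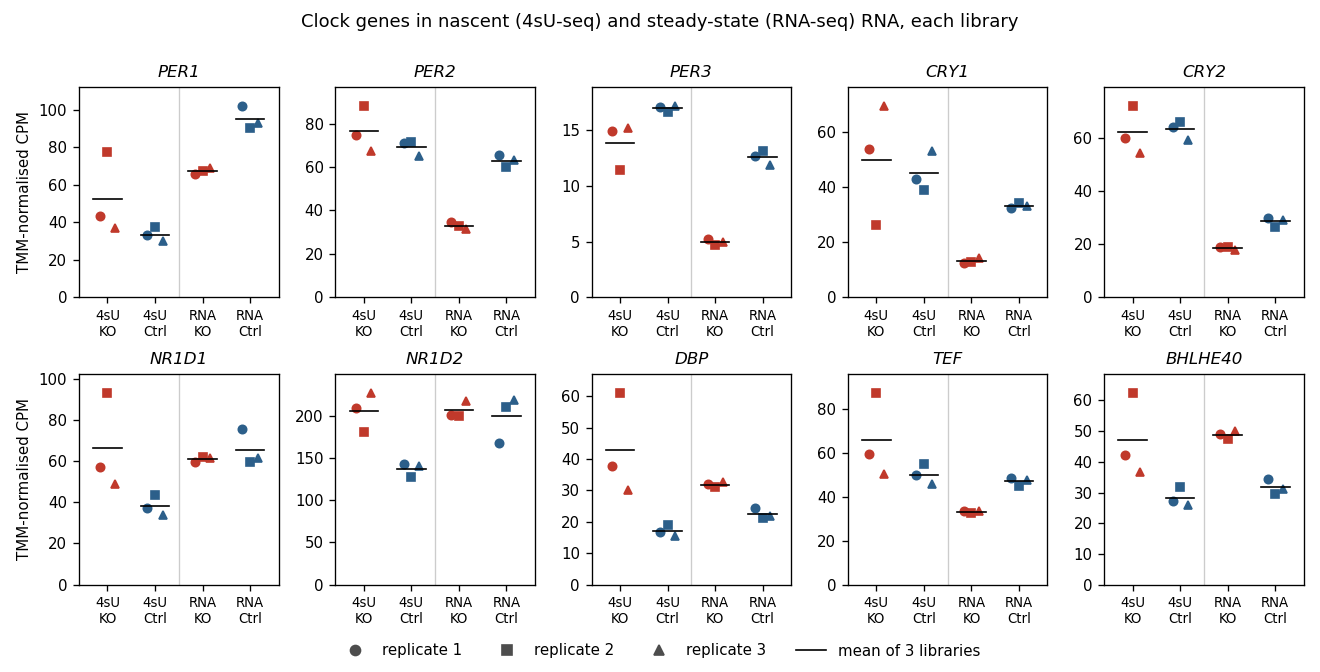
TMM-normalised CPM (y axis, linear, from 0, scaled to each gene) of the 10 clock genes in each library; columns are 4sU-seq KO, 4sU-seq Ctrl, RNA-seq KO and RNA-seq Ctrl, the marker shape gives the replicate and the line the mean of 3 libraries. In RNA-seq the KO libraries of CRY1 sit between 12.6 and 14.2 CPM, below all Ctrl libraries, whereas in 4sU-seq the KO libraries of CRY1 spread over 26.3 to 69.5 CPM.

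In RNA-seq, then, 2 of the 10 genes were called higher and 6 lower, 8 in all. Across all genes tested, 21.5% were called higher and 26.8% lower, 48.4% in all. The groups did not overlap for 8 of the 10, against 56.1% of all genes. The median change was −0.50 for the 10 genes and 0.00 for all genes. The 8 calls also stood when any one library was left out and when KO replicates 1 and 2 were added into 1 library. When all 12 libraries shared 1 estimate of the spread, 5 of the 8 were called, against 17.5% of all genes, PER1 (adjusted p = 0.131), DBP (0.130) and TEF (0.0504) being lost.

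Per kilobase of exon, the order of steady-state levels also differed between genotypes. In KO cells it ran NR1D2 (35.5 CPM per kb), NR1D1 (22.0), BHLHE40 (12.7), PER1 (9.62), TEF (7.07), DBP (4.87), PER2 (4.79), CRY2 (2.99), CRY1 (2.60) and PER3 (0.614). Only DBP and PER2 overlapped among neighbours in that order. In Ctrl cells it ran NR1D2 (34.2 CPM per kb), NR1D1 (23.6), PER1 (13.6), TEF (9.99), PER2 (9.15), BHLHE40 (8.27), CRY1 (6.59), CRY2 (4.62), DBP (3.44) and PER3 (1.55). Here PER2 and BHLHE40 overlapped. BHLHE40 thus held rank 3 in KO and rank 6 in Ctrl cells, DBP rank 6 in KO and rank 9 in Ctrl, and CRY1 rank 9 in KO and rank 7 in Ctrl. NR1D2 was highest and PER3 lowest in both. The length used joins all annotated exons of a gene, for DBP 6.54 kb of a span of 7.41 kb. The order between genes thus also depends on the annotation.

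In newly made RNA 2 of the 10 genes were called, near the share of all genes (19.6%). None was called lower in KO cells, against 6.98% of all genes tested, and DBP and NR1D2 were called higher, against 12.6%. Standard errors of the 10 changes were 0.12 to 0.34 here, against 0.05 to 0.08 in RNA-seq, so fewer calls do not by themselves show smaller changes. The 4 lowest changes were those of PER3, CRY2, CRY1 and PER2, between −0.30 and 0.15, where the steady-state levels had fallen most. Values come from the same test over 21236 genes.

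DBP had 37.9, 60.9 and 30.1 CPM in KO libraries, against 16.9, 19.1 and 15.6 CPM in Ctrl libraries. Even the lowest KO library lay above the highest Ctrl library, and DBP rose by 1.32 ± 0.27 (adjusted p = 0.0195). NR1D2 had 209, 181 and 226 CPM in KO libraries, against 143, 128 and 141 CPM in Ctrl libraries. It rose by 0.58 ± 0.12 (adjusted p = 0.0187), also without overlap, a call that ERCC scaling did not give (0.85, adjusted p = 0.419) and that was lost without any one library other than KO replicate 2 (0.0531 to 0.0998). NR1D1 had 57.3, 92.8 and 48.9 CPM in KO libraries, against 37.1, 43.6 and 33.8 CPM in Ctrl libraries (0.80 ± 0.26, adjusted p = 0.0767). BHLHE40 had 42.3, 62.3 and 36.8 CPM in KO libraries, against 27.2, 31.7 and 25.9 CPM in Ctrl libraries (0.74 ± 0.22, adjusted p = 0.0599). The groups of both genes were apart, but neither passed the threshold.

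PER1 had 43.5, 77.2 and 36.8 CPM in KO libraries, against 33.0, 37.6 and 29.8 CPM in Ctrl libraries (0.65 ± 0.29, adjusted p = 0.168). TEF had 59.7, 87.2 and 50.6 CPM in KO libraries, against 49.9, 54.9 and 45.7 CPM in Ctrl libraries (0.39 ± 0.22, adjusted p = 0.257). For both, KO replicate 2 was far above the others and the groups overlapped. PER2 averaged 76.6 ± 10.5 CPM in KO and 69.1 ± 3.43 CPM in Ctrl libraries (SD, n = 3 each), a change of 0.15 ± 0.13 (adjusted p = 0.479). CRY2 averaged 62.3 CPM in KO and 63.4 CPM in Ctrl libraries (−0.02 ± 0.14, adjusted p = 0.921). Neither separated the groups.

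PER3 had 14.9, 11.4 and 15.2 CPM in KO libraries, against 17.1, 16.7 and 17.2 CPM in Ctrl libraries. Its KO libraries were all below its Ctrl libraries, with a change of −0.30 ± 0.15 that was not called (adjusted p = 0.208). CRY1 had 54.0, 26.3 and 69.5 CPM in KO libraries, against 42.9, 39.2 and 53.3 CPM in Ctrl libraries (0.15 ± 0.34, adjusted p = 0.805). Its KO libraries enclosed the Ctrl libraries on both sides.

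In 4sU-seq, 2 of the 10 genes were called higher and 0 lower, which is close to the background of 12.6% higher and 6.98% lower, 19.6% in all. At an unadjusted p under 0.05 there were 4, against 7194 of all 21236 genes, and DESeq2's Wald test called 4 higher and 0 lower, against 26% of all genes called in either direction. The groups did not overlap for 5 of the 10 (PER3, NR1D1, NR1D2, DBP and BHLHE40), against 38.4% of all genes. The median change was 0.49 for the 10 genes and 0.05 for all genes.

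**Figure D2:**
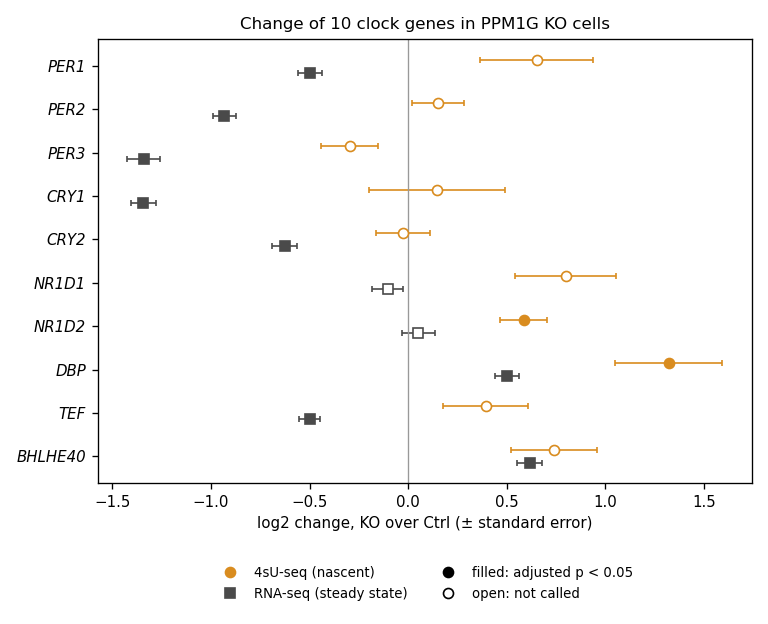
Log2 change of each clock gene, KO over Ctrl (x axis), with its standard error, in 4sU-seq (orange circles) and RNA-seq (grey squares); filled markers passed an adjusted p of 0.05. The 4sU-seq value lies to the right of the RNA-seq value for every gene, by least for BHLHE40 (0.74 against 0.62).

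In 4sU-seq, KO replicate 2 was the highest or the lowest KO library for all 10 clock genes. Within the KO libraries of 4sU-seq the highest value of a clock gene was 1.25 to 2.64 times the lowest, against 1.03 to 1.36 times within Ctrl. In RNA-seq the same ratio was 1.03 to 1.13 within KO and 1.06 to 1.303 within Ctrl. Replicate 2 was the highest KO library for 7 genes (PER1, PER2, CRY2, NR1D1, DBP, TEF and BHLHE40) and the lowest for the other 3 (PER3, CRY1 and NR1D2). CRY1 and PER3 are the longest of the 10 genes, with spans of 102 and 60.9 kb, and the shortest, BHLHE40, DBP and NR1D1, span 6.21, 7.41 and 7.94 kb. NR1D2, also lowest in replicate 2, spans 35.4 kb, while PER2 (46.1 kb) and CRY2 (36.1 kb) are longer and were highest there. Over 14141 genes, the deviation of a KO library from its group mean followed gene span with a Spearman rho of −0.63 in replicate 2, against 0.60 in replicate 1 and 0.60 in replicate 3. In the Ctrl libraries rho was −0.10, −0.56 and 0.54. Each deviation is taken from the mean of the same 3 libraries, so a trend in 1 library brings opposite trends in the others. The values of a group are therefore not separate findings. These are descriptions across genes, which are not independent.

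Without KO replicate 2, 5 genes were called in 4sU-seq, about the share of all genes (53.8%): NR1D1 (0.41, adjusted p = 0.0347), NR1D2 (0.60, 0.00167), DBP (0.91, 0.00159) and BHLHE40 (0.41, 0.0226) higher, and PER3 (−0.24, 0.0464) lower. PER1 then stood at 0.19, TEF at 0.07 and PER2 at −0.03. CRY1 stood at 0.38 and CRY2 at −0.21. The nascent changes of PER1, PER2, CRY1, CRY2, NR1D1, TEF and BHLHE40 thus moved by over 1.5 times with that library, that of PER2 changing sign. Without KO replicate 1, or without Ctrl replicate 1, 2 or 3, none of the 10 was called, against 6.09% to 7.87% of all genes. The adjusted p of DBP was then 0.0588 to 0.0945. With each library's trend with gene span removed, 4 genes were called higher and 1 lower, against 25.3% of all genes called.

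The difference between assays asks whether the change in newly made RNA differs from that in steady-state RNA. For all 10 genes it was positive, that is, the KO over Ctrl change was higher in 4sU-seq than in RNA-seq, as it was for 53.1% of all 15863 genes tested in both assays. The median difference was 0.89 on the log2 scale for the 10 genes and 0.03 for all genes. As the interaction of genotype and assay, 3 were called higher and 0 lower: PER2 (1.08 ± 0.13, adjusted p = 0.00344), PER3 (1.05 ± 0.18, 0.0162) and CRY2 (0.60 ± 0.14, 0.0483). Across all genes 1.27% were called higher and 1.24% lower, 2.51% in all. This fit takes 1 estimate of the spread per gene for both assays, although standard errors were larger in 4sU-seq than in RNA-seq. For CRY2 the standard error of the difference was 0.137, as it was for the change in 4sU-seq alone (0.063 in RNA-seq). The standard errors of the differences may thus be too small, and the calls rest on that shared spread.

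The other 7 genes did not pass. CRY1 had the largest difference, 1.51 ± 0.40 (adjusted p = 0.0806), followed by PER1 with 1.13 ± 0.29 (0.0694). NR1D1 stood at 0.89 ± 0.27 (0.115), TEF at 0.88 ± 0.21 (0.0543), DBP at 0.81 ± 0.27 (0.151) and NR1D2 at 0.54 ± 0.17 (0.140). BHLHE40, with changes of 0.74 in 4sU-seq and 0.62 in RNA-seq, stood at 0.11 ± 0.22 (0.861).

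Put as a nascent-to-total ratio (log2, on CPM plus 0.5), PER2 stood at 1.20 in KO and 0.13 in Ctrl cells, PER3 at 1.38 in KO and 0.42 in Ctrl, CRY1 at 1.78 in KO and 0.42 in Ctrl, and CRY2 at 1.71 in KO and 1.13 in Ctrl. PER1 had the lowest ratio in both genotypes, −0.43 in KO and −1.49 in Ctrl. The ratio was 0.06 in KO and −0.77 in Ctrl for NR1D1, and −0.01 in KO and −0.53 in Ctrl for NR1D2. It was 0.36 in KO and −0.38 in Ctrl for DBP, 0.93 in KO and 0.09 in Ctrl for TEF, and −0.08 in KO and −0.17 in Ctrl for BHLHE40. The median over all genes was 0.21 in KO and 0.19 in Ctrl cells. In KO cells 6 of the 10 clock genes lay above that median, in Ctrl cells 3.

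**Figure D3:**
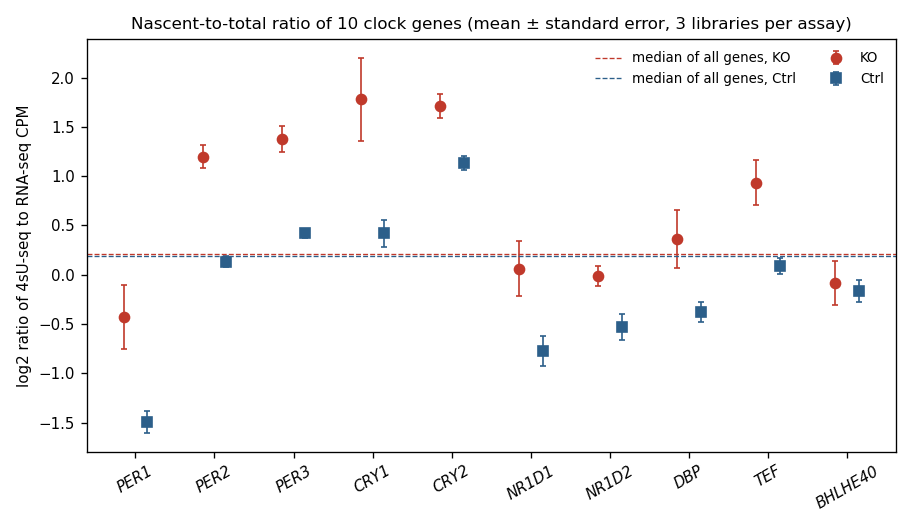
Nascent-to-total ratio, 4sU-seq over RNA-seq CPM on the log2 scale (y axis, mean with standard error over 3 libraries per assay) of the 10 clock genes in KO (red circles) and Ctrl (blue squares) cells; dashed lines give the median of all genes tested in both assays. Each KO ratio lies above the Ctrl ratio, and the widest gap is that of CRY1, 1.78 in KO and 0.42 in Ctrl cells.

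The differences rested on the libraries in use. Without 4sU-seq KO replicate 2, 9 of the 10 were called higher, the exception being BHLHE40 (−0.10), while the share of all genes called was 27.5%. CRY1 then stood at 1.83 (adjusted p = 6.35e-05). Without 4sU-seq KO replicate 3, 6 were called, against 2.28% of all genes. The call of CRY2 was lost in 16 of 24 alternative settings, among them library size alone (adjusted p = 0.148) and leaving out KO replicate 1 or any Ctrl replicate of 4sU-seq (0.0906 to 0.124). Without RNA-seq Ctrl replicate 1, KO replicate 2 or KO replicate 3, 1 was called, PER2, against 0.538% to 1.06% of all genes. ERCC scaling follows spike-in shares, which spanned 2.44-fold among the 4sU-seq libraries. Under it none was called, against 0.0441% of all genes, and the differences of PER2, PER3 and CRY2 were 1.19, 1.25 and 0.71.

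How the tables were counted bears on such a ratio. Of 346 protein-coding genes of at least 10 CPM in RNA-seq that lie wholly under other genes, 312 (90.2%) were at 0 in 4sU-seq, against 5 of 3108 genes without overlap (0.161%). Neither the counting feature nor the strand setting is given in the sources used here. Of the 10 clock genes, CRY2 has no overlapping gene in GENCODE 29. The overlap covers 35.5% of the span of PER1, 31.5% of PER3, 27.3% of PER2, 13.6% of NR1D1 (with THRA on the other strand), 13.6% of BHLHE40 and 9.29% of DBP (with SPHK2 on the other strand), and 3.77% or less of NR1D2, CRY1 and TEF. Without a known strand setting, reads of these overlaps cannot be told apart. The gene that overlaps PER1 lies on the same strand as PER1, so there a strand setting alone would not separate them. The part of these overlaps in the differences was not tested.

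On hg38 (GENCODE 29), PER1 (ENSG00000179094) and NR1D1 (ENSG00000126368) lie on chromosome 17 (minus strand), at 8140472 to 8156506 and at 40092787 to 40100725. PER2 (ENSG00000132326) lies on chromosome 2 from 238244038 to 238290102 (minus strand) and PER3 (ENSG00000049246) on chromosome 1 from 7784320 to 7845177 (plus). CRY1 (ENSG00000008405) lies on chromosome 12 from 106991364 to 107093829 (minus) and CRY2 (ENSG00000121671) on chromosome 11 from 45847118 to 45883248 (plus). NR1D2 (ENSG00000174738) and BHLHE40 (ENSG00000134107) lie on the plus strand of chromosome 3, from 23945260 to 23980618 and from 4979116 to 4985323. DBP (ENSG00000105516) lies on chromosome 19 from 48630030 to 48637438 (minus) and TEF (ENSG00000167074) on chromosome 22 from 41367333 to 41399326 (plus).

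The rest of the clock was read from 22 further genes. In RNA-seq 19 were tested, of which 15 were called lower, against 26.8% of all genes, and 4 were not called. In 4sU-seq 18 were tested, of which 3 were called lower, against 6.98% of all genes, and 15 were not called. Their median change was −0.27 in RNA-seq, against 0.00 for all genes, and −0.13 in 4sU-seq, against 0.05. In the fit of all 12 libraries 10 of the 15 RNA-seq calls were lost (adjusted p = 0.0524 to 0.587), those of NPAS2, BHLHE41, NFIL3, HLF and WEE1 being kept. RORB, CIART and FBXL21 were too low to test in both assays.

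Of the activators, ARNTL, the partner of CLOCK, had 56.7, 48.9 and 54.1 CPM in KO libraries, against 85.6, 84.3 and 89.3 CPM in Ctrl libraries of 4sU-seq. It fell there by 0.70 ± 0.11 (adjusted p = 0.00756), while in RNA-seq it averaged 15.8 CPM in KO and 15.4 CPM in Ctrl libraries (0.03 ± 0.07, adjusted p = 0.734). Its difference between assays, −0.72 ± 0.13 (adjusted p = 0.0175), was the one called among them and had the opposite sign to those of the 10 genes. NPAS2, which can replace CLOCK, fell by 0.73 ± 0.11 in 4sU-seq (adjusted p = 0.00779) and by 0.52 ± 0.07 in RNA-seq (adjusted p = 5.93e-05). CLOCK fell by 0.26 ± 0.06 (adjusted p = 0.00166) and ARNTL2 by 0.41 ± 0.07 (adjusted p = 0.000191) in RNA-seq. The 4sU-seq calls of ARNTL and NPAS2 were lost without Ctrl replicate 1 (adjusted p = 0.0523 and 0.0551) and under ERCC scaling (0.678 for both), and that of the difference for ARNTL without 4sU-seq Ctrl replicate 1 or 3 or RNA-seq KO replicate 2 or 3, with RNA-seq KO replicates 1 and 2 as 1 library, and under ERCC scaling (−0.56).

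RORA, a nuclear receptor that activates ARNTL at the sites that REV-ERB receptors also bind, was not called in either assay. It averaged 0.916 CPM in KO and 0.618 CPM in Ctrl libraries of 4sU-seq (0.57 ± 0.21, adjusted p = 0.108) and 2.26 CPM in KO and 1.71 CPM in Ctrl libraries of RNA-seq (0.41 ± 0.20, adjusted p = 0.108).

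All 3 repressors tested fell in RNA-seq. BHLHE41 (DEC2), the paralogue of BHLHE40, had 2.54, 2.62 and 3.35 CPM in KO libraries, against 6.33, 6.39 and 5.96 CPM in Ctrl libraries (−1.14 ± 0.12, adjusted p = 5.05e-06). The paralogues thus moved in opposite directions. NFIL3, a repressor at D-boxes, fell by 0.63 ± 0.06 (adjusted p = 4.03e-06) and CIPC, which inhibits CLOCK, by 0.24 ± 0.05 (adjusted p = 0.00211). CIPC had at most 0.0696 CPM in any 4sU-seq library, and other genes overlap 98.9% of its span. The part of that overlap in its low 4sU-seq value was not tested. HLF, a further PAR bZIP gene, fell by 0.68 ± 0.13 (adjusted p = 0.000605), as TEF did and DBP did not.

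The 3 kinase genes whose products phosphorylate clock proteins fell in RNA-seq: CSNK1E by 0.36, CSNK1D by 0.27 and GSK3B by 0.23. The ubiquitin ligase genes BTRC and FBXW11 fell by 0.36 and 0.26. Among output genes, NAMPT, the rate-limiting enzyme of NAD salvage, fell by 0.34, and WEE1, a kinase that holds back mitosis, by 0.39. The adjusted p of these 7 genes lay between 0.000109 and 0.00326. KLF10 and USP2 were not called. TIMELESS stood at −0.14 (adjusted p = 0.0478), a call lost when any library was left out. In 4sU-seq, WEE1 fell by 0.36 ± 0.09 (adjusted p = 0.0410), and this call was lost without any one library other than KO replicate 2. With library size alone as the scaling, which moved the median of all genes to 0.19, or with ERCC scaling, the RNA-seq falls of CLOCK, CIPC, CSNK1D, GSK3B and FBXW11 were not called, and TIMELESS stood at 0.04 with library size alone.

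**Figure D4:**
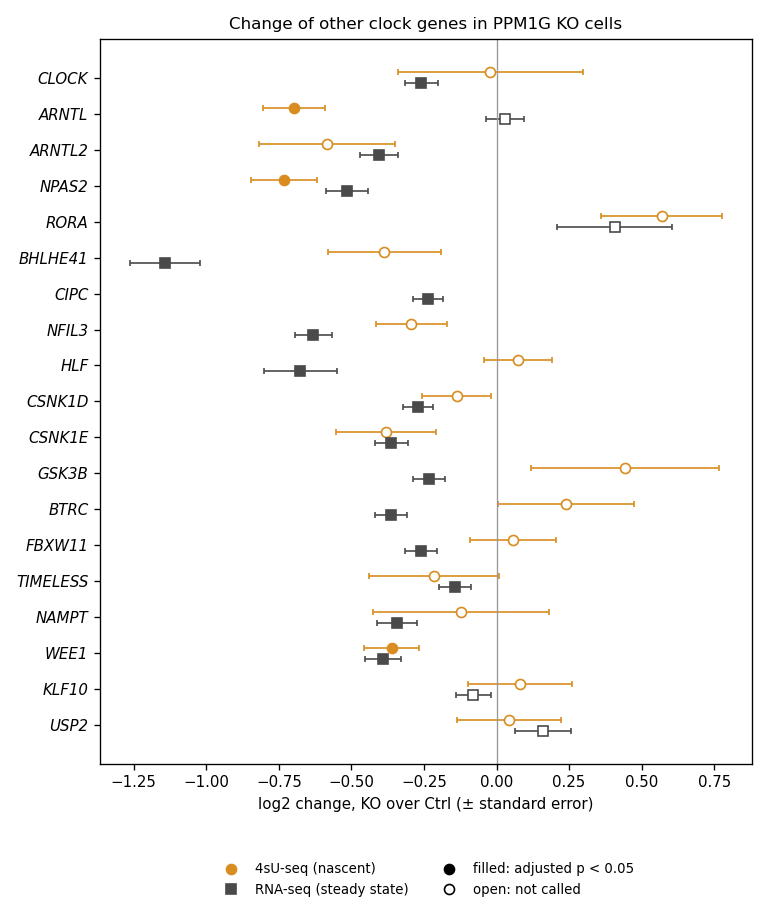
Log2 change, KO over Ctrl (x axis), with its standard error, of the other clock genes that were tested, in 4sU-seq (orange circles) and RNA-seq (grey squares); filled markers passed an adjusted p of 0.05, and CIPC was tested in RNA-seq alone. Most RNA-seq values lie between −0.68 and 0, with BHLHE41 below (−1.14) and RORA highest (0.41, not called).

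The genes whose pattern was most like that of CRY1, the clock gene with the smallest p in RNA-seq, were PPFIBP1 (Pearson r = 0.989), WWTR1 (0.989) and RSU1 (0.987). The measure was log2 CPM centred within each assay over the 12 libraries, among 12564 protein-coding genes. The points share genotype and library, including the spread of 4sU-seq KO replicate 2, so the values describe likeness alone.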

How the data were processed

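Members and gene lists were chosen with earlier results of these data known. The submitters' processing notes name HISAT2 2.1.0 (build hg38), SAMtools 1.3, featureCounts and FastQC 0.11.2. The authors deposited 1 table of raw gene counts per assay, with 92 ERCC spike-in species. Library sizes excluded ERCC counts. After filterByExpr (minimum count 10) and TMM scaling, edgeR 4.0.16 tested KO against Ctrl within each assay (quasi-likelihood F test, two-sided, Benjamini-Hochberg, threshold 0.05). Standard errors are |change|/√F. The difference between assays was the interaction over 12 libraries, with TMM within each assay and 1 estimate of the spread per gene for both assays. All members, the other clock genes called in at least 1 of 3 comparisons, and the 3 genes most like the member with the smallest RNA-seq p are named; uncalled list genes named without this rule were chosen after their values were seen. Levels per kb used GENCODE 29 exons, an annotation that held 94.3% of the gene IDs. Floors cover counting error only. The fits were tested on simulated counts with the same dispersion for every gene, library and assay. That test covers neither an outlying library nor a trend with gene span. R 4.3.3, DESeq2 1.42.0 and matplotlib 3.10.9 were also used. Some genes of the clock list are not reported here.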

Additional observations from a re-analysis of the deposited data

Results flagged for a closer look

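For 3 clock genes the KO over Ctrl change differed between newly made and steady-state RNA by the interaction test: PER2 by 1.08 (adjusted p = 0.00344), PER3 by 1.05 (adjusted p = 0.0162) and CRY2 by 0.60 (adjusted p = 0.0483), each higher in 4sU-seq. Of 24 alternative settings, the call of PER2 was lost in 1, that of PER3 in 5 and that of CRY2 in 16. For ARNTL, their activator, the change differed by −0.72 (adjusted p = 0.0175), lower in 4sU-seq, a call lost in 6 of 24 settings. The interaction test takes 1 estimate of the spread per gene for both assays.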

How the results depend on the processing

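In 4sU-seq 2 clock genes were called, both higher, against 19.6% of all genes. ERCC scaling gave 1 (3.37% of all genes), and the replicate number as a block gave 5 (32.5%). DESeq2's Wald test gave 4 (26%), all 12 libraries in 1 fit gave 4 (25.4%), and leaving out both replicates numbered 2 gave 4 (50.3%). With the gene-span trend removed, a setting added after seeing the data, 5 were called (4 higher, 1 lower), against 25.3%. Leaving out each library gave 0 to 5, with 0 to 4 higher and 0 to 1 lower, against 6.09% to 53.8% of all genes. In RNA-seq 8 were called, against 48.4% of all genes. The fit of all 12 libraries gave 5, with 1 higher, against 17.5%. A log2 change above 0.5 as well took out PER1 (−0.496) and TEF (−0.499), with 20.5% of all genes then called. For the difference between assays 3 were called, all higher, against 2.51% of all genes. ERCC scaling gave 0 (0.0441% of all genes), the replicate block 8 (4.14%) and the Wald test 7 (7%). RNA-seq KO replicates 1 and 2 as 1 library gave 1 (0.672%), and leaving out both replicates numbered 2 gave 9 (24.7%). The span trend removed gave 8 (3.9%), and leaving out each library gave 1 to 9 (0.538% to 27.5%). The cause was not tested.

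Changes of sign were confined to genes not called, apart from TIMELESS in RNA-seq (0.041 with library size alone). In 4sU-seq, PER2 ran over −0.032 to 0.23 when each library was left out, CRY1 over −0.17 to 0.38 and CRY2 over −0.21 to 0.061. CRY1 stood at −0.044 with the span trend removed, and CRY2 at 0.16 under ERCC scaling and 0.066 with library size alone. In RNA-seq, NR1D1 ran over −0.14 to 0.056, with 0.080 for library size alone, and NR1D2 over −0.013 to 0.15. The difference of BHLHE40 ran over −0.10 to 0.26 and was −0.0053 without both replicates numbered 2. With TMM over all 12 libraries the Ctrl ratios of PER2 and TEF stood at −0.03 and −0.08.

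Over all genes, 4166 were called in 4sU-seq, against 716 under ERCC scaling, 6907 with the block, 6549 in the fit of all 12, 10893 without both replicates numbered 2 and 1322 to 11673 with each library left out. In RNA-seq 9871 were called, against 4507 in the fit of all 12 and 4188 with a log2 change above 0.5 as well. For the difference 398 were called, against 7 under ERCC scaling, 190 without a filter, 656 with the block, 1111 by the Wald test, 108 with KO replicates 1 and 2 as 1 library, 3928 without both replicates numbered 2, 618 without the span trend and 86 to 4361 with each library left out. Of the 4sU-seq calls 64.4% were higher, against 93.9% under ERCC scaling and 78.3% with library size alone. In RNA-seq it was 44.6%, against 61.6% and 72.4%, and for the difference 50.5%, against 71.4% and 29.7%. The median of all genes moved to 0.27 and 0.14 in 4sU-seq and to 0.08 and 0.19 in RNA-seq. Deviations of same-numbered KO and Ctrl libraries correlated at −0.16, 0.88 and 0.85 in 4sU-seq and −0.06, 0.21 and 0.31 in RNA-seq. Not every library correlated best with its own number: in 4sU-seq those numbered 2 and 3 did, and those numbered 1 did not. The main fits did not take the numbers to pair the samples, while the replicate block does. Whether libraries of 1 number share a batch was not tested.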
